A study of Rattus norvegicus with 50 samples.

Results

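The lungs of control and exposed rats were compared 28 days after the end of a 4-week inhalation exposure (D28). Every array whose label names that day was taken, which gave 10 of the 50 arrays of the series, 5 from exposed and 5 from control rats. All were male rats of the inbred F344 strain, with an age of 12 weeks in the labels. The exposed rats had breathed an aerosol of TiO2 P25 nanoparticles (titanium dioxide, a poorly soluble particle) through the nose only, at 10 mg/m3 for 6 hours a day on 5 days of each week, and the control rats had breathed filtered air. Each array held the RNA of the accessory lobe of 1 rat, so this small lobe stands for the lung, and all its cell types are mixed. The other days were 0, 3, 90 and 180 days after exposure (D0, D3, D90 and D180), each with its own 5 control and 5 exposed rats.

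A poorly soluble particle that reaches the alveoli is taken up by macrophages, which clear it slowly, so that particles stay in the lung long after the last exposure. The airway epithelium answers inhaled material with secreted defence proteins such as mucins, lactoperoxidase and complement factors. The lung also has its own molecular clock, a feedback loop in which the activators Bmal1 (Arntl on the array), Clock and Npas2 switch on their own repressors Per, Cry and Rev-erb as well as output genes such as Dbp, so that activators and outputs peak at opposite times of the day.

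The tissue label was checked first. Genes of the alveolar type 2 cell were among the brightest in both groups, with Sftpc, the surfactant protein C gene, at a mean of 18.71 in control and 18.86 in exposed rats (log2 of the normalized intensity, the unit of every level given here). Ager, of the alveolar type 1 cell, stood at 15.73 and 15.70, and Foxj1, of ciliated cells, at 11.58 and 11.43. Heart muscle genes were present too, with Myh6, a heart myosin, at 13.39 and 13.09. The share of spots well above background was 71.8% to 78.0% on the 10 arrays. Their 95th percentile of negative control spots ran from 4.47 to 15.2 intensity units on 9 arrays and was 40.6 on the array of exposed rat 4. Arrays shared slides (the glass carriers scanned together) across the groups, with 1 control and 1 exposed rat on slide 1, 2 and 2 on slide 3, 1 and 2 on slide 4, and control rat 1 alone on slide 2. The first principal component of the 10 arrays carried 29.9% of the variance. Taken alone, slide accounted for 97.8% of it and exposure for 12.6%. On the second component it was 56.1% and 42.4%, and on the third 43.7% and 33.0%. Slide and exposure were not balanced and were fitted separately, so these shares do not split the variance.

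Of 25237 genes tested, 327 were differentially expressed genes (DEGs), which is 1.30% of all genes. A DEG changed by at least 1.5-fold with an adjusted p under 0.05 (limma, Benjamini-Hochberg over all genes), and "rose" and "fell" are used for DEGs alone. There were 212 over-expressed genes (0.840% of all genes) and 115 under-expressed genes (0.456%), while the median change over all genes was -0.0041 on the log2 scale. Scaling each array to its 75th percentile in place of quantile normalization gave 164 and 145, which lowered the over-expressed share from 64.8% to 53.1%. The median size of change among the DEGs was 1.87-fold, and it was at least 2-fold in 143 of them. With slide as a block, the fit called 487 genes (1.93%), among them 298 of the 327 in the same direction.

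**Figure D1:**
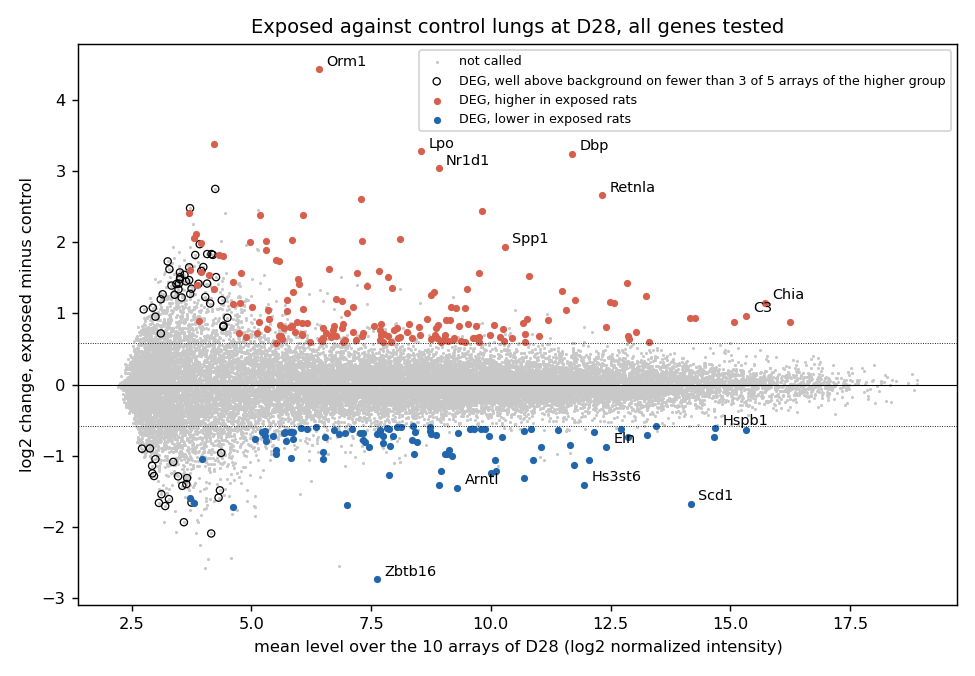
Each point is 1 of the 25237 genes, with its mean level over the 10 arrays of D28 on the x axis (log2 normalized intensity) and its log2 change, exposed minus control, on the y axis; dotted lines mark 1.5-fold. Filled points are DEGs, 212 higher and 115 lower in exposed rats counting the open circles, which are the 62 DEGs well above background on fewer than 3 of 5 arrays of the group where they are higher, and these lie at the dim end.

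In 224 DEGs both groups were well above background on at least 3 of 5 arrays, and in 62 not even the higher group was. The 5 exposed values lay wholly above or below the 5 control values in 192 of the 327 DEGs, and in 158 of the 224 detected in both groups, against 3.70% of all genes. In each of the 3 slides that held both groups, 311 DEGs kept their direction (95.1%, against 44.3% of all genes). The shares without overlap and within slides come from the same arrays that called the DEGs, so neither is a separate check. Leaving out 1 array at a time, 141 DEGs were called all 10 times, of which 120 were detected in both groups. The under-expressed genes rested more on single arrays, as their count was 57 without exposed rat 5, 67 without exposed rat 2, 72 without exposed rat 4, 208 without control rat 5 and 214 without exposed rat 1. Without exposed rat 1 the total was 511.

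Genes of the molecular clock moved in both directions, each arm in its own. Of the 12 measured genes that peak with the output arm, 8 rose and none fell, where 0.840% of all genes rose and 0.456% fell, and all 12 were higher in exposed rats, with a median log2 change of 0.81. Of the 5 measured genes of the opposite arm 3 fell and all 5 were lower, with a median of -0.97. Both arms together had 12 of 17 genes whose groups did not overlap, against 3.70% of all genes.

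Stretches of 250 bases before the start of 5 of the genes are given here because they hold the short motifs through which the clock and the heat shock factor are known to act, set in capitals. They come from RefSeq on the GRCr8 build of the rat genome and run 5′ to 3′ on the gene's strand. Ciart is RGD1566380 on the array, a repressor of the clock activators, and its window at chr2:186112247-186112496 (minus strand) holds 3 E-boxes (CACGTG), the motif bound by Bmal1 with Clock. Tef, an output factor related to Dbp, has 1 E-box at chr7:115206577-115206826 (plus strand). Per2, a repressor, has 1 D-box (TTANGTAA), the motif of Dbp and Tef, at chr9:99496994-99497243 (minus strand). Bmal1 has 1 ROR motif (AGGTCA), the motif of the Rev-erb repressors, at chr1:176766078-176766327 (plus strand). Hspb1, a small heat shock protein, has 2 heat shock motifs (GAANNTTC) at chr12:26432302-26432551 (minus strand).
Ciart: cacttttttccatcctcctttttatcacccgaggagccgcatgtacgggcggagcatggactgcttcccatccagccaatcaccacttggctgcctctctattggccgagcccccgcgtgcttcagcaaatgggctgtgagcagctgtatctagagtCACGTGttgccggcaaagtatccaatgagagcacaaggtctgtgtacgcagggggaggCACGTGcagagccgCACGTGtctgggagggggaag
Tef: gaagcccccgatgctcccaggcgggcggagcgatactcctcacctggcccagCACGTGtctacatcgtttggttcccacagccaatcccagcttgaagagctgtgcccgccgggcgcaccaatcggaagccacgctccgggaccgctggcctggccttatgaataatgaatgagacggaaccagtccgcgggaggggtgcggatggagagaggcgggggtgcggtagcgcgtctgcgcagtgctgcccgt
Per2: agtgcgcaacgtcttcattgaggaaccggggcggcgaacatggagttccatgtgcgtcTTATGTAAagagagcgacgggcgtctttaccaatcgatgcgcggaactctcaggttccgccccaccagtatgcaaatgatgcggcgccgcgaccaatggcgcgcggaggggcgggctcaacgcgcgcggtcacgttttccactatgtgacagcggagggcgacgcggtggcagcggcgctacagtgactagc
Bmal1: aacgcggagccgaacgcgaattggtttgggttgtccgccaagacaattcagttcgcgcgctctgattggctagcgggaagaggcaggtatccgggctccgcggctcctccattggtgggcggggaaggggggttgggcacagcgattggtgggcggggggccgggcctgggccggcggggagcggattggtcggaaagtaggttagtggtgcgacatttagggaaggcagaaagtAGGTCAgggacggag
Hspb1: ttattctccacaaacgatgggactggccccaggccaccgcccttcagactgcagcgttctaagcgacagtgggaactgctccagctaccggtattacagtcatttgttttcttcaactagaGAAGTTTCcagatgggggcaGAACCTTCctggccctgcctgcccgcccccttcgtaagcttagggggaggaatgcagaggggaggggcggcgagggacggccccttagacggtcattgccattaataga

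The motifs were searched on both strands in such windows of the 17 clock genes, of which 12 of the output arm and 4 of the opposite arm had one. An E-box stood in the windows of 5 of the 12 output genes, Tef, Nr1d1, Ciart, Bhlhe40 and Bhlhe41, and of none of the 4 others, where 5.59% of all 33469 windows hold it. The D-box was in 1 of the 12 and in 2.04% of all windows, and the ROR motif in 2 of the 12, 1 of the 4 and 14.1% of all windows. A match is a description of the letters and not a bound site.

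Dbp, a transcription factor that carries the clock's rhythm to output genes, stood at 10.35, 10.12, 9.98, 9.98 and 9.96 in control rats 1 to 5 and at 12.35, 12.62, 13.80, 13.89 and 13.97 in exposed rats 1 to 5. All exposed rats lay far above all controls, and exposed rats 1 and 2 were nearest to them. The rise was 9.48-fold (log2 change 3.25 ± 0.24 SE, n = 5 per group, limma adjusted p = 4.8e-13), and the 3 probes of the gene gave 3.18 to 3.31. Nr1d1, which codes for the repressor Rev-erb alpha, was at 6.05, 7.61, 7.02, 8.26 and 8.03 in control and at 10.06, 10.25, 10.66, 10.38 and 10.80 in exposed rats. Its controls spread more widely, yet no exposed rat came near the highest of them, and the rise was 8.21-fold (limma adjusted p = 1.1e-08). Nr1d2, the sister gene for Rev-erb beta, rose 3.09-fold (log2 change 1.63, and 0.95 after normexp correction, limma adjusted p = 1.2e-08).

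Arntl, the activator Bmal1, mirrored them, at 9.92, 9.95, 10.18, 9.98 and 10.10 in control and at 9.27, 9.05, 8.28, 8.23 and 8.02 in exposed rats. The groups did not overlap, and exposed rats 1 and 2 were again the nearest to the controls. The fall was 2.74-fold (log2 change -1.45 ± 0.17 SE, limma adjusted p = 5.0e-08). Cry1, a repressor that peaks late in the cycle, fell 2.36-fold (limma adjusted p = 8.3e-09), and Npas2, which can replace Clock, fell 1.96-fold (limma adjusted p = 0.0071). Of the 2 probes of Npas2 the brighter changed by -1.18 and the other by 0.09, and the call was lost when the log2 values of both were averaged (-0.55). Clock (-0.56) and Nfil3 (-0.57), a repressor of D-box genes, were lower with adjusted p-values of 0.011 and 0.0018 (limma) but by less than 1.5-fold.

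Among the other output genes Per3 rose 2.31-fold and Tef 1.76-fold, both without overlap between the groups. Per2 and Bhlhe41, a repressor of the activators, which the rule for named genes did not pick, rose by 0.80 each on the log2 scale, Per2 with overlap. Per2 lost its call without control rat 4 or 5 or exposed rat 4 or 5 (0.63 to 0.76, limma adjusted p-values 0.063 to 0.10). Ciart was at 3.87, 2.92, 2.63, 2.65 and 2.75 in control rats, where it was not well above background on any array, and at 3.78, 3.44, 5.89, 6.07 and 5.57 in exposed rats. Exposed rats 1 and 2 thus stayed in the range of the controls. The rise of 3.96-fold (log2 change 1.99, but 0.53 after normexp correction) lost its call without exposed rat 4 (log2 change 1.71, limma adjusted p = 0.063) or exposed rat 5 (1.83, limma adjusted p = 0.054). Per1, Bhlhe40, Usp2 and Cry2 were not DEGs, with changes of 0.28, 0.51, 0.27 and 0.33. In 9 of the 11 clock genes called, exposed rats 1 and 2 were both nearer to the controls than the other 3 exposed rats, a pattern chosen after the values were seen. Exposed rats 1 and 3 were both on slide 3 and exposed rats 2 and 5 both on slide 4, and the part of slide in this pattern was not tested.

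The direction was the opposite of that soon after exposure. At D3 the change of exposed rats against their own controls was -2.45 in Dbp, -1.31 in Nr1d1 and 1.59 in Arntl, and the D28 change minus the D3 change was 5.70 ± 0.34 SE in Dbp (limma adjusted p = 6.8e-16), 4.35 in Nr1d1 and -3.05 in Arntl. At D90 the changes were 3.34, 2.22 and -1.56 and at D180 2.95, 3.02 and -1.10, so the sign of D28 was kept at both later days. The control rats of different days also stood apart. Dbp was at a mean of 14.56 and 14.52 in the controls of D0 and D3, at 10.08 in those of D28 and at 10.14 and 10.07 in those of D90 and D180, while the exposed rats of D28 were at 13.32. The hour at which each lung was taken is not given in the sources used here, and its part in these differences was not tested.

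**Figure D2:**
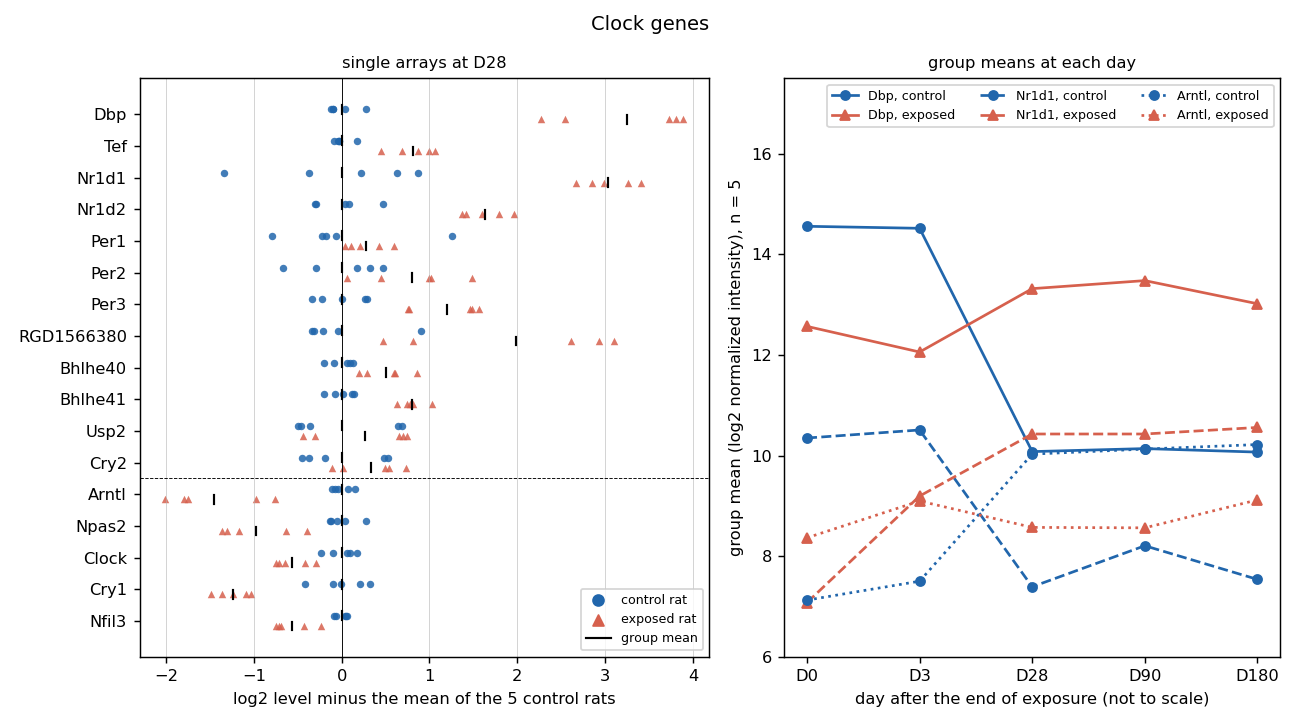
Left, the level of each of the 17 measured clock genes on the 10 arrays of D28, as log2 level minus the mean of the 5 control rats (circles control, triangles exposed, bars group means), with the output arm above the dashed line and the opposite arm under it. Right, group means (log2 normalized intensity, n = 5) of Dbp, Nr1d1 and Arntl at each day; the control means of Dbp moved from 14.52 at D3 to 10.08 at D28 and the order of control and exposed rats turned for all 3 genes.

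Several genes outside the clock lists had the same turn in sign between D3 and D28. Hs3st6, a heparan sulfate sulfotransferase, fell 2.65-fold at D28, from 12.78, 12.79, 12.60, 12.76 and 12.33 in control to 11.87, 11.66, 11.39, 10.47 and 10.84 in exposed rats. All exposed rats were lower than all controls, while at D3 its change had been 1.16, a difference of -2.56 (limma adjusted p = 9.8e-10). Fibin, a secreted protein, fell 2.33-fold at D28 against a change of 0.67 at D3. Epm2a, a glycogen phosphatase named after its values were seen, rose by 1.75 at D28 after -1.79 at D3. At D28 it was well above background on 1 control array and on 5 exposed arrays, so its control level was near background.

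Plasma proteins of the acute phase, which liver and inflamed tissues release, were mostly higher. Of 14 measured genes 4 rose, against 0.840% of all genes, and none fell, 12 were higher and the median log2 change was 0.41. Orm1, for the plasma carrier orosomucoid, was near background in controls, at 3.49, 4.47, 6.33, 3.39 and 3.35 in control and 8.44, 9.06, 8.21, 8.49 and 8.95 in exposed rats. Control rat 3 was the highest control, and the gene was well above background on 1 control array, yet that rat stayed well under the lowest exposed rat. The log2 change was 4.43 ± 0.43 SE (limma adjusted p = 1.0e-09), but its size depended on how background was treated, with 2.29 after normexp correction and 2.62 in the authors' table, and on the slide, from 2.16 within slide 1 to 5.66 within slide 4. Hp, for haptoglobin, which binds free haemoglobin, went from 13.54 to 13.81 in controls to 14.55 to 14.74 in exposed rats and rose 1.92-fold (limma adjusted p = 2.5e-11). Hpx, for the haem carrier hemopexin, rose 1.64-fold and Itih3, for a chain of a plasma protease inhibitor, 1.82-fold, without overlap between the groups. Saa4, a serum amyloid gene, was higher by 0.38 (limma adjusted p = 0.059).

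Complement genes followed with smaller steps. Of 34 measured 3 rose and none fell, against 0.840% of all genes, and the list's median change was 0.11. C3, the central factor of the cascade, was at 14.84, 14.96, 14.69, 14.87 and 14.81 in control and 15.85, 15.90, 15.73, 15.71 and 15.83 in exposed rats. The groups were narrow and well apart, and the rise was 1.96-fold (log2 change 0.97 ± 0.08 SE, limma adjusted p = 6.8e-12). Cfi, for a protease that cuts C3b, rose 2.23-fold (limma adjusted p = 2.6e-12) and C4bpa, for the C4b binding protein, 1.56-fold (limma adjusted p = 3.4e-08). C1qa and C1qb, subunits of the starter complex, were higher by 0.37 and 0.26, under the fold limit.

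In the coagulation and kinin list 3 of 37 genes rose, against 0.840% of all genes, and these were the kininogens and Cpb2. Kininogens are the precursors of the kinin peptides that widen vessels. Kng1 (Kng2 in current naming) was at 8.50 to 8.84 in control and 10.67 to 11.35 in exposed rats, a rise of 5.40-fold with the groups far apart (log2 change 2.43 ± 0.14 SE, limma adjusted p = 8.5e-16). Kng1l1 (Kng1 in current naming) rose 6.12-fold (log2 change 2.61, and 1.75 after normexp correction, limma adjusted p = 7.4e-10). The 2 are close copies, and a probe of one may also take up the other. Cpb2, for a carboxypeptidase that slows clot breakdown, was at 5.37 to 5.91 in 4 exposed rats and at 9.67 in exposed rat 4, against 3.81 to 5.15 in controls. Its log2 change was 1.74 (limma adjusted p = 0.0071) and 0.93 without exposed rat 4 (limma adjusted p = 0.0080), and after normexp correction it was 0.91. F2 and F3, for prothrombin and tissue factor, were higher by 0.44 and 0.37 without a call.

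Among 24 measured genes of airway secretion and defence, 8 rose, against 0.840% of all genes, none fell and the median change was 0.14, so most of the list moved little. Lpo, for the lactoperoxidase of airway fluid, stood at 6.12, 7.10, 7.30, 6.71 and 7.30 in control and at 10.02, 10.55, 9.64, 9.98 and 10.69 in exposed rats. No exposed rat came close to a control, and the rise was 9.67-fold (log2 change 3.27 ± 0.29 SE, limma adjusted p = 9.0e-11). Duox1, for an oxidase that supplies the hydrogen peroxide lactoperoxidase works with, rose 1.78-fold from 9.31 to 9.85 in controls to 10.24 to 10.78 in exposed rats (limma adjusted p = 2.5e-07). Duoxa1, for its maturation factor, also rose, by 0.61 with overlap, and fell under the fold limit without control rat 4 or exposed rat 4 or 5 (0.50 to 0.57). Slc26a4, for the exchanger pendrin that moves thiocyanate and iodide into airway fluid, rose 2.10-fold (limma adjusted p = 2.7e-05). The peroxidase, the oxidase Duox1 and the exchanger were thus DEGs in the same direction. Duox2, a related oxidase named after its values were seen, changed by -0.17 without a call (limma adjusted p = 0.46).

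Other members of the list were Bpifb1, a secreted lipid-binding defence protein, which rose 2.48-fold, and Muc20, a membrane mucin, which rose 2.28-fold (log2 change 1.19, but 0.49 after normexp correction). Tmem45b, a membrane protein well above background on 1 control array, rose by 1.89 on the log2 scale, and by 0.69 after normexp correction and 0.82 in the authors' table. Vsig2 rose by 0.62 and lost its call without control rat 3 or 5 or exposed rat 4 or 5 (limma adjusted p-values 0.051 to 0.056). Duoxa1 and Vsig2 were named outside the rule. In the list of epithelial serine proteases 3 of 14 rose, against 0.840% of all genes. Tmprss4, a membrane protease, was at 8.04 to 8.35 in controls and 9.02 to 9.21 in exposed rats, and rose 1.89-fold (limma adjusted p = 4.3e-10) with all 3 probes between 0.82 and 0.95. Tmprss9, well above background on 2 control arrays, rose by 2.02 on the log2 scale, and by 0.70 after normexp correction, and the kallikrein Klk13 rose 1.77-fold, while Prss30 (0.64) and Prss22 (0.55) were not called.

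**Figure D3:**
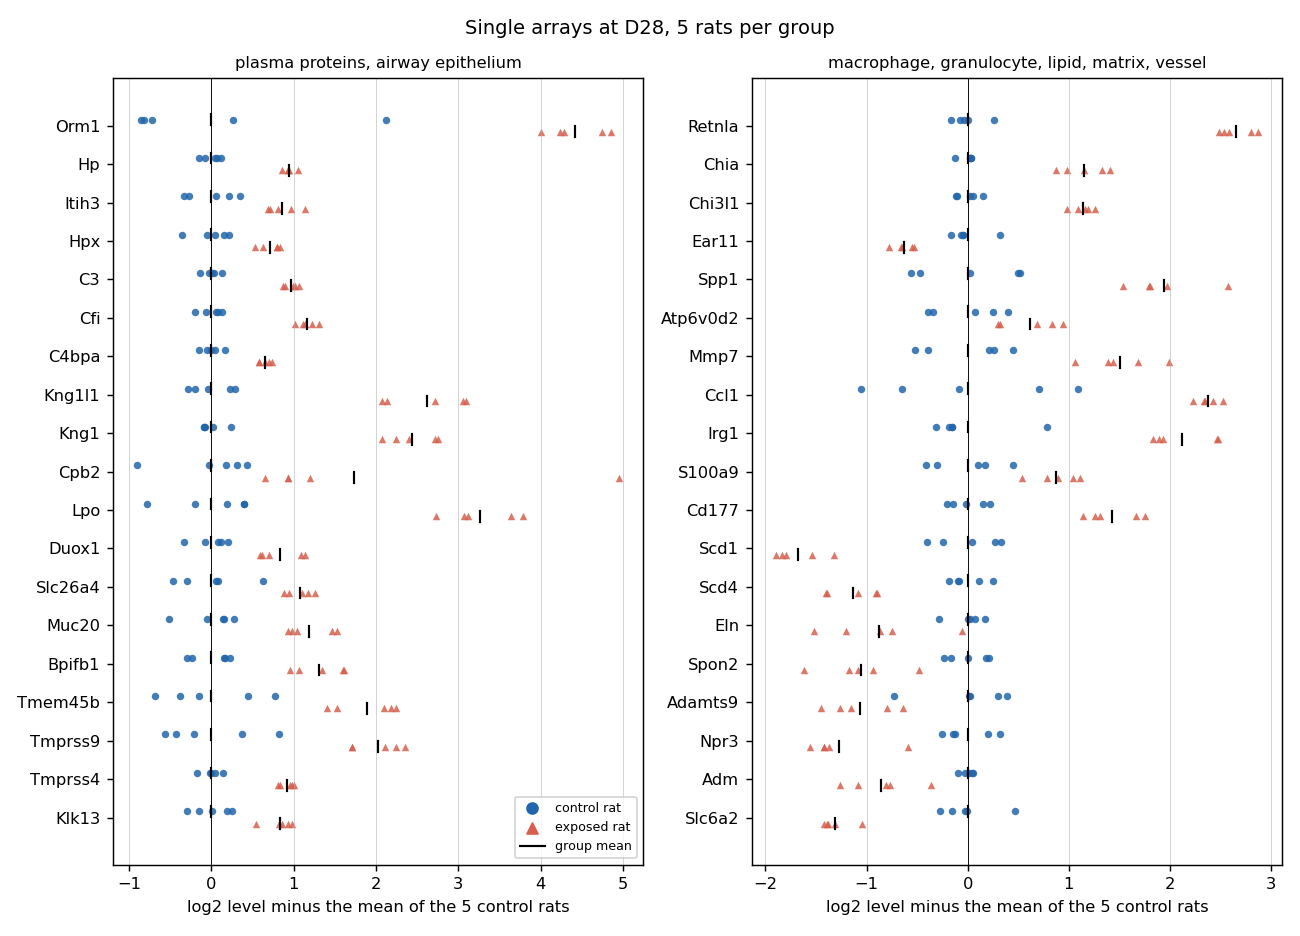
Levels of DEGs of plasma proteins, airway epithelium, macrophages, granulocytes, lipid, matrix and vessels on the 10 arrays of D28, as log2 level minus the mean of the 5 control rats (circles control, triangles exposed, bars group means). The groups do not overlap except in Atp6v0d2, Eln and Adamts9, and the highest exposed value of Cpb2 is that of exposed rat 4.

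Genes of alternative macrophage activation and chitin response included both large rises and a fall, with a median of 0.16. Of 14 measured 3 rose and 1 fell, against 0.840% and 0.456% of all genes. Retnla, for a small secreted protein of the resistin family made by epithelium and macrophages in type 2 responses, stood at 10.83 to 11.26 in control and at 13.48, 13.80, 13.58, 13.53 and 13.87 in exposed rats. The groups were separated by over 2 log2 units, and the rise was 6.30-fold (log2 change 2.66 ± 0.18 SE, limma adjusted p = 2.8e-14). Chia, for acidic mammalian chitinase, rose 2.22-fold from an already high 15.03 to 15.19 in controls, and Chi3l1, for a chitinase-like protein, rose 2.21-fold. Ear11 (Rnase3 in current naming), an eosinophil-type ribonuclease, fell 1.55-fold, and its call was lost without control rat 1 (-0.55). Because lobes were measured whole, more cells of a type and more RNA per cell cannot be told apart, here and for every list that follows.

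Of 19 genes of lipid-laden and Spp1-type macrophages 2 rose, against 0.840% of all genes. Of the 19, 17 were higher, against 12418 of all 25237. Spp1, for osteopontin, went from 9.35, 9.84, 8.85, 9.82 and 8.76 in control to 10.86, 11.12, 11.30, 11.13 and 11.90 in exposed rats. All exposed rats were above all controls, a rise of 3.83-fold (limma adjusted p = 4.0e-06). Gpnmb, a lysosomal membrane glycoprotein of such cells, was higher by 0.26 without a call. Atp6v0d2, a proton pump subunit, rose 1.53-fold with overlap and lost its call without control rat 3 or 5 or exposed rat 3, 4 or 5 (log2 changes 0.52 to 0.60, limma adjusted p-values 0.060 to 0.090). Mmp7, matrilysin, rose 2.85-fold (limma adjusted p = 3.4e-05), the 1 DEG of 16 metalloproteinases and inhibitors, against 1.30% of all genes.

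General macrophage genes held no DEG. None of 12 alveolar macrophage genes was a DEG, with a median of 0.18, and Pparg, a regulator of these cells, changed by -0.01. None of 24 lysosomal genes was a DEG either, although 21 were higher, and the median was 0.16. In exposed rats 2 of the 12 and 2 of the 24 were higher with an adjusted p under 0.05 at less than 1.5-fold, against 2.37% of all genes. At an unadjusted p under 0.05 (limma) it was 5 and 11, all higher, where 4238 of all 25237 genes passed in either direction.

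Of 36 chemokines 1 rose, against 0.840% of all genes, and none fell, and 4 rose with slide as a block. At an adjusted p under 0.05 without the fold limit 3 were higher, and at an unadjusted p under 0.05 (limma) 11 were higher and 5 lower, where 4238 of all 25237 genes passed the latter. Ccl1, a ligand that recruits cells bearing the receptor CCR8, was at 5.59, 5.98, 4.80, 3.83 and 4.24 in control and at 7.12, 7.32, 7.24, 7.41 and 7.23 in exposed rats. The exposed rats were alike and the controls spread, and the rise was 5.19-fold (log2 change 2.38, and 1.13 after normexp correction, limma adjusted p = 4.4e-06). Ccl2, which recruits monocytes, was higher by 0.51 (limma adjusted p = 0.23). In 12 of the 36 the D28 change differed from the D3 change, against 1.22% of all genes. Among them were Cxcl5, which recruits neutrophils, at 0.01 against 3.96, and Ccl12 at -0.11 against 3.13, both named after their values were seen. Of 23 cytokines and sensors limma called none, with 5 higher and 1 lower at an unadjusted p under 0.05, and Il1a stood at 0.44 and Il1b at 0.10. Irg1 (Acod1 in current naming), for the enzyme that makes itaconate in activated macrophages, rose 4.35-fold. It was not well above background on any control array and was so on 3 exposed arrays. Its log2 change of 2.12 was only 0.44 after normexp correction.

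Neutrophil genes were split. Cd177 rose 2.69-fold (limma adjusted p = 1.1e-08) and S100a9, a subunit of the protein calprotectin, rose 1.83-fold (limma adjusted p = 0.00061), while 9 of the 18 measured genes were higher and 9 lower, with a median of -0.01. S100a8, the partner of S100a9, was higher by 0.31 without a call, and Csf3r and Cxcr2, receptors that define the cell, changed by 0.03 and -0.20. Elane, of immature neutrophils, was not well above background on any of the 10 arrays. The markers therefore did not move as a set with the 2 DEGs.

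Lymphocyte and antigen presentation genes had few DEGs. Mzb1, of plasma cells, rose 1.58-fold, the 1 call among 14 B and plasma cell genes, against 1.30% of all genes. Of the 14, 12 were higher, with a median of 0.30. Mzb1 lost its call without control rat 4 (0.57). Icos, a T cell costimulator, rose 1.51-fold and Ly49s3, a natural killer receptor, fell 1.75-fold. The call of Icos was lost by the fold limit without control rat 2, 3 or 5 or exposed rat 1 (0.52 to 0.59). Cd3d and Cd3e, which all T cells carry, changed by 0.17 and -0.03. In MHC class II no gene of 10 passed the fold limit, but 6 were higher with an adjusted p under 0.05, against 2.37% of all genes, and 9 of 10 were higher with a median of 0.38. RT1-Bb, a class II beta chain, was higher by 0.51 ± 0.08 SE (limma adjusted p = 1.2e-05). The mean of the list, centred gene by gene, was -0.29 to -0.05 in control and 0.09 to 0.23 in exposed rats.

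Cell division genes were higher throughout at small size. All 26 measured were higher, against 12418 of all 25237 genes, with a median of 0.31. Of the 26, 3 rose, against 0.840% of all genes. Mcm5, a subunit of the replicative helicase, was at 7.26, 7.62, 7.34, 7.61 and 7.28 in control and 7.99, 7.99, 8.23, 8.26 and 8.15 in exposed rats, without overlap, and rose 1.63-fold (limma adjusted p = 0.00063). Shcbp1 rose by 0.68 and Bub1b, of the spindle checkpoint, by 0.62. Shcbp1 lost its call without control rat 3 (0.58) and when its probes' log2 values were averaged (0.32), and Bub1b without control rat 1 or 4 or exposed rat 4 or 5 (0.50 to 0.58). Mki67 and Top2a, common markers of dividing cells, were higher by 0.22 and 0.21 without a call. The list's centred mean ranged from -0.29 to 0.02 in control and from 0.03 to 0.33 in exposed rats, so the 2 ranges nearly met.

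Of 30 genes of fatty acid and sterol synthesis 2 fell, against 0.456% of all genes, both desaturases, and none rose. Scd1 (Scd in current naming), for the desaturase that makes oleic acid, stood at 15.35, 15.30, 14.78, 15.07 and 14.62 in control and at 13.23, 13.48, 13.19, 13.70 and 13.13 in exposed rats. The groups were well apart, and the fall was 3.20-fold (log2 change -1.68 ± 0.18 SE, limma adjusted p = 1.1e-08). Scd4 fell 2.19-fold (limma adjusted p = 7.2e-07), and the probe named Scd on the array (Scd2 in current naming) was lower by 0.43 (limma adjusted p = 0.0016). The family's sequences are alike, so probes may share signal. Fads1 and Fads2, desaturases of long polyunsaturated chains named after their values were seen, changed by 0.16 and -0.12 without a call, and the median of the list was 0.04.

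The Scd1 change at D28 was the reverse of that at D3 (0.66), with a difference of -2.34 ± 0.26 SE (limma adjusted p = 2.8e-08). Acot1, a fatty acyl-CoA thioesterase, rose 2.10-fold with overlap, the only call among 20 genes of fat oxidation, against 1.30% of all genes. It stood at 8.30, 8.11, 9.01, 9.29 and 8.96 in control and 10.50, 9.79, 9.70, 8.92 and 10.11 in exposed rats. On slide 1 its difference was -0.10, against 1.40 and 1.00 on slides 3 and 4. Cpt1a, which lets fatty acids into mitochondria, was higher by 0.40 (limma adjusted p = 0.0083), under the fold limit. Of 12 surfactant and type 2 cell genes none was a DEG, although all 12 were higher, with Sftpa1 at 0.27. An unadjusted p under 0.05 (limma) was reached by 8 of them and by 4238 of all 25237 genes.

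In the elastin and collagen list 3 of 31 genes fell, against 0.456% of all genes, and none rose. Of the 31, 27 were lower, with a median of -0.12. Eln, for elastin, was at 12.85, 13.01, 12.92, 12.87 and 12.56 in control and at 12.79, 11.98, 12.09, 11.64 and 11.32 in exposed rats. Exposed rat 1 stayed within the controls and the other 4 were lower, so that the fall of 1.83-fold (limma adjusted p = 0.0047) came with overlap, and its 2 probes gave -0.88 and -1.24. Spon2, a matrix protein, fell 2.08-fold without overlap, and Adamts9, a matrix protease, fell 2.09-fold with overlap. Fbn1, the fibrillin of elastic fibres, changed by -0.09. Eln and Spon2 had been higher at D3, by 0.91 and 0.70, and the differences between the days were -1.78 and -1.76 (limma adjusted p-values 4.0e-05 and 3.6e-05).

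In the list of natriuretic peptides, adrenomedullin and endothelin 2 of 17 genes fell, against 0.456% of all genes, and none rose. Npr3, the clearance receptor for natriuretic peptides, was at 8.71, 8.37, 8.83, 8.26 and 8.39 in control and at 7.09, 7.09, 6.95, 7.92 and 7.14 in exposed rats, a fall of 2.41-fold without overlap (limma adjusted p = 1.1e-05) in which exposed rat 4 was nearest to the controls. Adm, for the vasodilator adrenomedullin, fell 1.81-fold (limma adjusted p = 0.00055). Of the 17 genes of this list 14 were lower, with a median of -0.20, and Npr1 and Npr2, the signalling receptors, changed by -0.26 and 0.00. Endothelial markers were lower alongside, 10 of 12 with a median of -0.19, though none was a DEG. Pecam1 was lower by 0.45 (limma adjusted p = 0.00011). At an unadjusted p under 0.05 (limma) 5 markers were lower and 1 higher, where 4238 of all 25237 genes passed. The part of endothelial content in these falls was not tested.

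Nerve genes went both ways. Slc6a2, the noradrenaline transporter, fell 2.47-fold from 11.20, 11.08, 11.82, 11.33 and 11.35 in control to 10.04, 9.94, 9.97, 10.31 and 9.98 in exposed rats, with no overlap (limma adjusted p = 5.5e-06). Scn10a, a sodium channel known from pain-sensing neurons, rose 2.95-fold (limma adjusted p = 2.1e-08). Tac1, the precursor of substance P, fell 1.59-fold, but lost the call without control rat 1 or 2 or exposed rat 2 or 5 (log2 changes -0.63 to -0.59, limma adjusted p-values 0.077 to 0.12). Calca, the precursor of the neuropeptide CGRP, changed by -0.13.

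Heat shock genes were lower in 12 of 13, with a median of -0.25, and 2 fell, against 0.456% of all genes. Hspb1, whose upstream stretch is given above with 2 motifs, was at 14.90 to 15.08 in control and 14.29 to 14.45 in exposed rats and fell 1.53-fold (log2 change -0.61 ± 0.08 SE, limma adjusted p = 4.3e-07). Hsph1, a large chaperone, fell 1.71-fold (limma adjusted p = 0.0066). The heat shock motif was in the windows of 8 of the 10 list members that had one and of 7.23% of all genes' windows. Hspa1b, an inducible chaperone, changed by -0.04.

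Of 15 genes known to be induced by glucocorticoids 3 fell, against 0.456% of all genes, and none rose. Of the 15, 9 were higher, with a median of 0.02. Zbtb16, a transcription factor, was at 8.71, 9.40, 9.52, 9.29 and 7.99 in control and at 5.85, 5.43, 5.71, 7.38 and 6.87 in exposed rats. The groups did not overlap, but the spread over all groups was wide, and the fall of 6.66-fold was called narrowly (log2 change -2.74 ± 0.80 SE, limma adjusted p = 0.041). Fkbp5, a chaperone of the glucocorticoid receptor, fell 2.08-fold (limma adjusted p = 0.042). For both the call held only without control rat 5 or exposed rat 4, and leaving out any of the other 8 arrays gave limma adjusted p-values of 0.055 to 0.13. Lims2, an adhesion protein, fell 1.54-fold and lost its call without control rat 3 (-0.57).

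Antioxidant genes under the factor Nrf2 had 2 rises in 17, against 0.840% of all genes. Slc7a11, the cystine importer, rose 2.07-fold without overlap (limma adjusted p = 1.9e-07), with 1.08 at its brighter and 0.15 at its other probe, and its call was lost when their log2 values were averaged (0.72, limma adjusted p = 0.096). Mt1a, a metallothionein, rose 1.51-fold and fell under the fold limit without control rat 3 or 5 or exposed rat 3 (0.52 to 0.58). Nqo1, a standard target of the factor, was higher by 0.38 (limma adjusted p = 0.015). Cyp4b1, a lung cytochrome, fell 1.64-fold (limma adjusted p = 4.9e-05), the 1 call of 16 cytochromes and related enzymes, against 1.30% of all genes.

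The remaining lists held 1 DEG in all. Ifit1 was the 1 call of 20 interferon-stimulated genes, against 1.30% of all genes. It was at 2.53 to 3.05 in controls, never well above background, and at 6.79, 4.72, 3.77, 3.18 and 2.77 in exposed rats. Without exposed rat 1 its change was 0.84 (limma adjusted p = 0.10). It also lost the call without control rat 2 or 4 or exposed rat 2 (1.36 to 1.47, limma adjusted p-values 0.053 to 0.082) and Isg15, a gene of the same response, changed by -0.16. No gene was called among 8 alveolar type 1, 9 ciliated, 12 iron, 16 immediate early, 6 smooth muscle, 9 heart muscle, 6 mesothelium, 9 red blood cell and 7 fat genes. At an unadjusted p under 0.05 (limma) 2 type 1 cell, 1 ciliated, 2 smooth muscle, 4 heart muscle, 1 mesothelium and 4 red blood cell genes were lower, 5 iron genes were higher and 2 lower, and no immediate early or fat gene passed. The same limit was passed by 4238 of all 25237 genes. All 8 type 1 cell genes, all 9 red blood cell genes and 8 of 9 heart muscle genes were lower, with medians of -0.21, -0.22 and -0.38. Adipoq, the adiponectin gene of fat cells, differed by 1.35 with a limma adjusted p of 0.38.

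**Figure D4:**
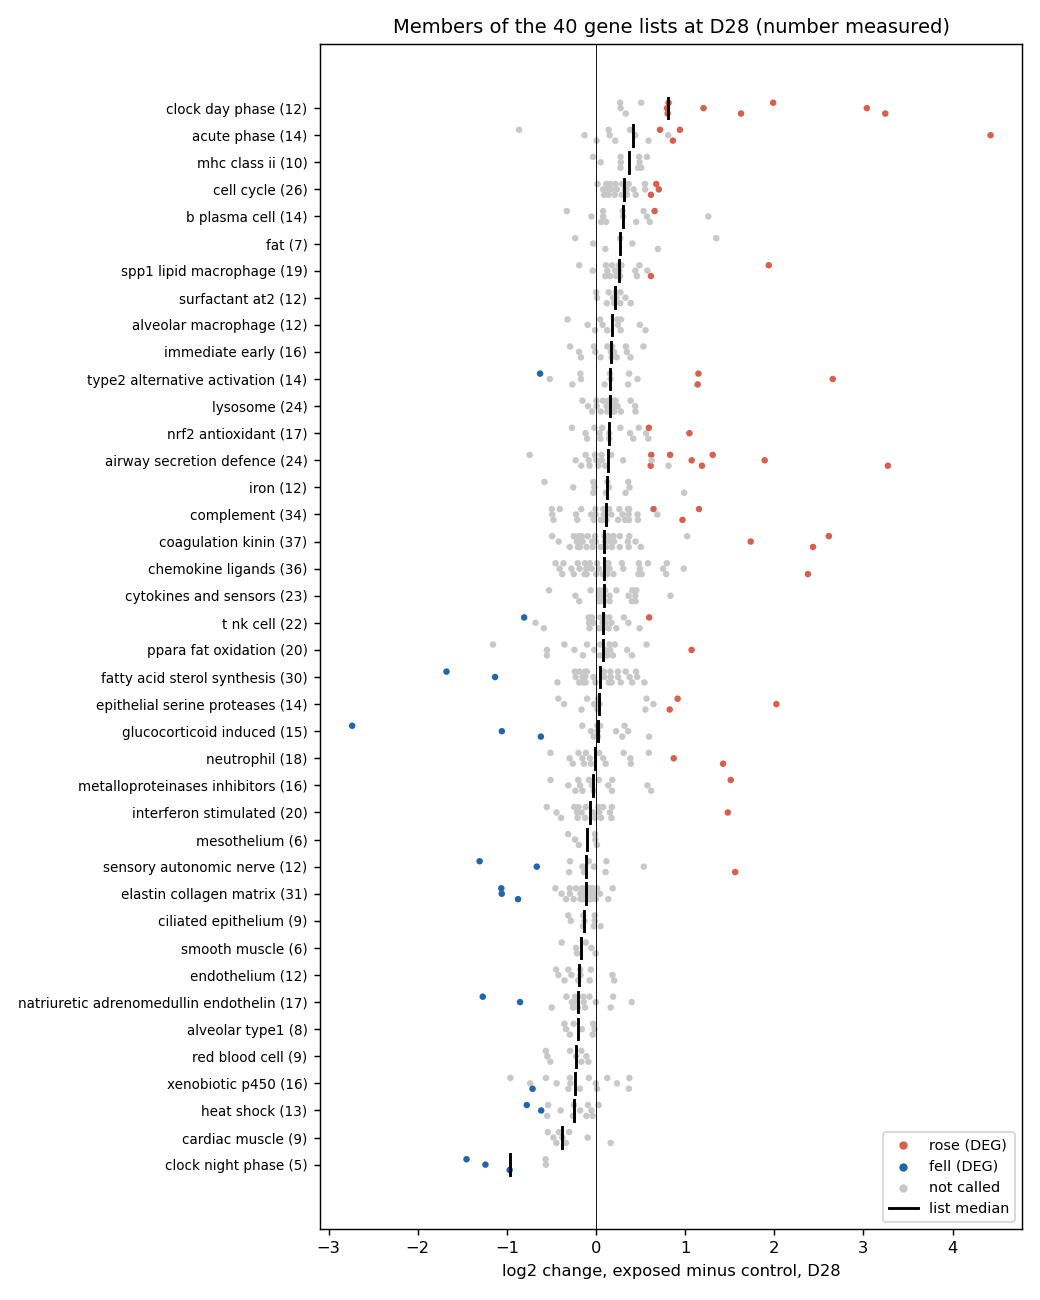
The log2 change at D28 (exposed minus control, x axis) of each measured member of the 40 gene lists, ordered by list median (black bars), with DEGs in red and blue and other genes in grey. The output arm of the clock is at the top with a median of 0.81 and the opposite arm at the bottom with -0.97, and in most other lists the DEGs stand away from members that changed little.

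The other genes with the largest changes belonged to no list. Zp1, an egg coat gene with a signal on all arrays, fell 3.23-fold from 8.42, 8.43, 7.17, 8.29 and 6.89 in control to 6.13, 6.33, 6.48, 6.16 and 5.65 in exposed rats, without overlap. Gsg1, known from germ cells, rose by 2.03 on the log2 scale, and by 0.94 after normexp correction. Fam13a, a gene tied to lung function, fell 2.33-fold with -1.23 at its brighter and -0.00 at its other probe, and averaging their log2 values ended the call (-0.59, limma adjusted p = 0.36). Tyr, the pigment enzyme tyrosinase, was at 6.38, 6.63 and 6.30 in exposed rats 3, 2 and 4 but at 2.68 and 2.49 in rats 1 and 5, inside or close to the 2.38 to 2.58 of controls. Its log2 change was 2.40, but 0.79 after normexp correction, and 3.01 without exposed rat 5. The rise of 5.29-fold lost the call without exposed rat 2, 3 or 4 (log2 changes 1.97 to 2.05, limma adjusted p-values 0.060 to 0.078).

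Odorant receptor genes were called on similar grounds, near background with a wide spread. Olr1410 rose 4.16-fold with exposed rats at 5.18, 2.85, 6.39, 6.74 and 2.95 and controls at 2.61 to 3.08. After normexp correction its log2 change was 0.61. Olr619, Olr1652 and Olr825 fell 3.29-fold, 3.09-fold and 3.01-fold, were not well above background on any exposed array, and overlapped between the groups. After normexp correction their log2 changes were -0.53, -0.27 and -0.41. These 3 lost their calls without 4 to 6 of the 10 arrays. Olr619 did so without control rat 2 or 4 or exposed rat 2 or 4, Olr1652 without control rat 1, 2 or 4 or exposed rat 2 or 5, and Olr825 without control rat 1, 3 or 4 or exposed rat 3, 4 or 5 (limma adjusted p-values 0.052 to 0.18).

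The D28 changes were set beside those of the other days, which used other rats. Of the 327 DEGs, 118 were also DEGs of the same sign at D3 (36.1% of the D28 DEGs and 13.5% of the 871 at D3) and 29 were DEGs of opposite sign. At D90 it was 75 (22.9%, but 80.6% of the 93 DEGs of D90) and at D180 57 (17.4%, and 69.5% of the 82), and no gene was called in opposite directions between D28 and D90 or D180. D0 shared 128 (39.1% of the D28 and 12.2% of the 1050 D0 DEGs). Over all genes 2.71%, 1.91%, 0.230% and 0.246% rose and 1.45%, 1.55%, 0.139% and 0.0792% fell at D0, D3, D90 and D180 (4.16%, 3.45%, 0.369% and 0.325% together). The D28 DEGs thus held most of the DEGs of D90 and D180 and a smaller share of those of D0 and D3. These shares depend on the length of each list, since 327 genes cannot hold most of 1050 or 871. As shares of the D28 DEGs the order was the reverse, from 39.1% at D0 to 17.4% at D180.

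The test of the difference put 307 genes (1.22% of all genes) apart between D28 and D3, 141 with a higher and 166 with a lower change at D28. Of these 206 were DEGs at D3, and in 192 of the 206 the change was smaller at D28. In 25 the gene was a DEG at D28 but not at D3, and in 29 at both with opposite signs. For Slc26a4 the D28 change of 1.07 was lower than the D3 change of 2.78 by 1.71 (limma adjusted p = 4.8e-06), for Hpx it was lower by 0.85 and for C4bpa by 0.63. Between D28 and D90 the same test called no gene (0.00% of all genes), with a lowest adjusted p of 0.19 and 747 genes at an unadjusted p under 0.05 (limma). With slide as a random block it called 2 genes and without exposed rat 2 it called 1.

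By their calls at the 5 days, 3 sets of DEGs are described. In the first, 18 genes were called at all 5 days, every one of them over-expressed, including Orm1, Lpo, Retnla, both kininogens, Ccl1, Tmprss9, Spp1, Scn10a, Mmp7, Cd177, Muc20, Chia and Chi3l1. In the second, 69 genes were called the same way at D0, D3 and D28 but not at D90 or D180, 58 of them over-expressed, and 61 were smaller at D28 than at D0. A lost call is not a tested difference, since the test between D28 and D90 called no gene, and 17 of the 69 still had an adjusted p under 0.05 (limma) at D90 or D180 and missed the fold limit alone, among them C3 (0.52 at D90, limma adjusted p = 3.7e-05), Hp (0.54) and Tmprss4 (0.54). C3, Hp, Slc26a4, Duox1, Tmprss4, S100a9, Itih3 and Hpx belong here, with Tac1 and Ear11 among the 11 that fell. In the third, 23 genes were called the same way at D28, D90 and D180 but in that direction at neither D0 nor D3, 14 over-expressed and 9 under-expressed, and these hold Dbp, Nr1d1, Nr1d2, Per3, Tef, Arntl, Cry1, Hs3st6, Fibin, Scd4, Eln and Acot1. Aqp3, a water and glycerol channel of airway basal cells named after its values were seen, is of the same kind, with changes of 0.62, 0.40, 1.56, 2.15 and 1.84 from D0 to D180.

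**Figure D5:**
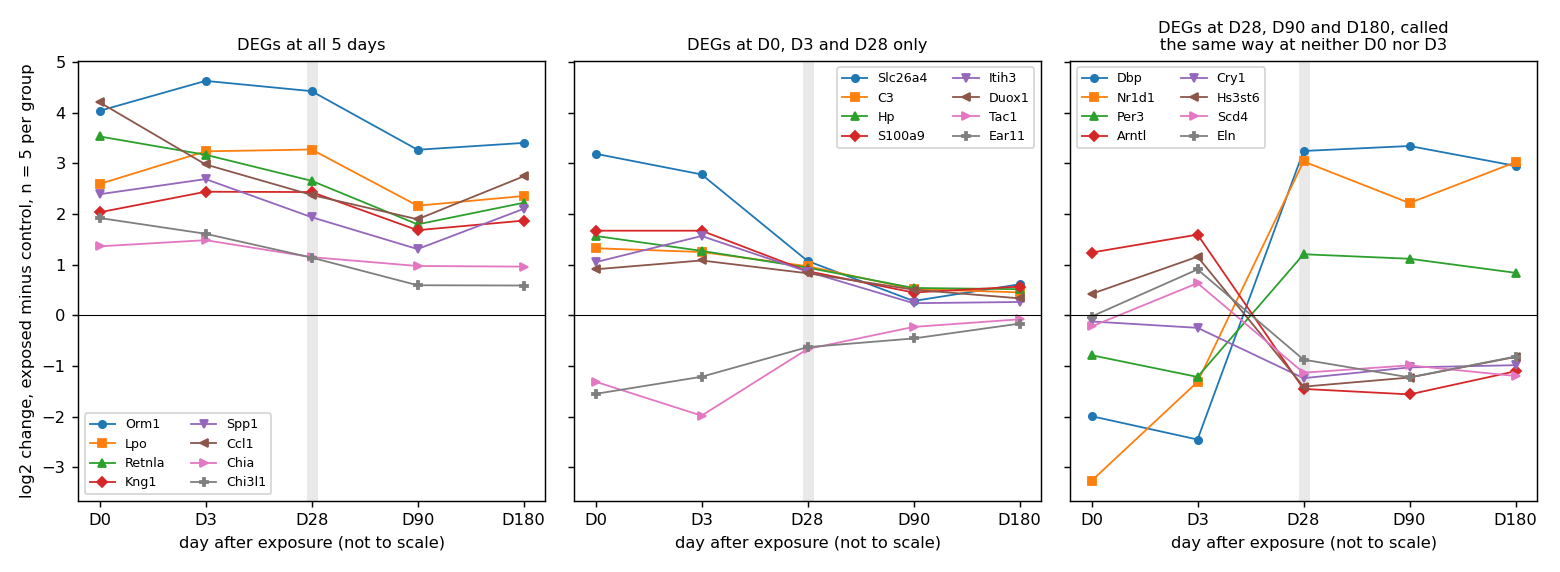
The log2 change of exposed against control rats (y axis, n = 5 per group and day) at D0, D3, D28, D90 and D180 for 8 genes of each set, with D28 shaded. On the left the changes stay above 0 at all days, in the middle they are nearer to 0 at D90 and D180 than at D0, and on the right they are of the other sign or near 0 before D28.

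A further 132 DEGs were called at no other day, 66 over-expressed and 66 under-expressed. In 59 of them both groups were detected, and in 52 not even the higher group was, out of 62 such DEGs in all. The 59 include Snx19, a sorting nexin, which rose by 0.67 (limma adjusted p = 5.5e-07), and Txnrd3, a thioredoxin reductase, which rose by 0.72 (limma adjusted p = 1.4e-05), as well as Coro2b, an actin-binding protein (-0.67, limma adjusted p = 2.2e-07), and Nrg1, a ligand of the ErbB receptors (-0.69, limma adjusted p = 0.00041). These 4 were named after their values were seen, kept their calls without any 1 of the 10 arrays and had no overlap between the groups. Probes of the same gene differed, with -0.68 and -0.01 for Coro2b and 0.72, 0.39 and 0.39 for Snx19.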

How the data were processed

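RNA (100 ng) of each lobe was labelled with Cy3 and hybridised to a 1-colour Agilent rat array. The authors deposited scanner files of Agilent Feature Extraction 11.0.1.1, whose processed intensity is background-subtracted, and a table that the values showed to hold median intensities after quantile normalization, taken as an alternative. The study's batch terms are not given in the sources used here.

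Outlier spots were dropped, processed intensities averaged by probe and gene name, put on the log2 scale and quantile normalized over all 50 arrays. Of 25885 gene names 25237 exceeded the 95th percentile of 308 negative control spots on at least 5 arrays, of which 7906 carry no gene symbol. In 84 spots of 22 files, names altered by a spreadsheet were restored. Group means of the 10 groups were fitted with limma 3.58.1 (R 4.3.3), two-sided, with Benjamini-Hochberg adjustment. A gene was called at a fold of at least 1.5 and an adjusted p under 0.05. The fit was tested on simulated data in which 200 genes changed at D28. It called 51% of those changed by 0.8 on the log2 scale and 78% of those changed by 1.5, and 7 of its 136 calls were false. The simulated noise held no slide effect, unlike the arrays. For genes not well above background on any array of the lower group, folds set each such array at no less than its lowest level well above background. These folds are no lower bounds, as normexp correction gave smaller changes. P-values measure the spread between single rats' lobes within groups, pooled over all 10 groups and not that of the D28 rats alone. With only the 10 arrays of D28 the limma adjusted p was 0.0022 in Dbp and 0.38 in Cpb2. The number of arrays limits the precision.

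Named genes were the 15 largest increases and 15 largest decreases among called genes with a symbol that were well above background on at least 3 of 5 arrays of the higher group, up to 6 called members of each of 40 gene lists, and the first 2 measured members of each list. The members and lists were chosen with earlier results of these data known. A list is described by its counts and median, with no test. Array symbols are kept, with current names from RefSeq where they differ. Alternatives were slide or replicate number as a block, 75th percentile scaling, normexp background correction (offset 50), the brightest probe, averaged log2 values of probes, no or a stricter filter, the authors' table, no fold limit, only the 10 arrays of D28, and leaving out each of these.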

Additional observations from a re-analysis of the deposited data

Results flagged for a closer look

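Among 150 groups of 5 arrays of called genes, 10 had an array further from the others than Dixon's 95% limit, where chance gives about 1 in 20. Exposed rat 4 was that array in Cpb2 (9.67, the others 5.37 to 5.91), Npr3 (7.92, the others 6.95 to 7.14) and Slc6a2 (10.31, the others 9.94 to 10.04), and exposed rat 1 in Icos (7.37, the others 7.13 to 7.19). Control rat 5 was that array in Irg1 (3.57, the others 2.47 to 2.63), Fam13a (9.09, the others 9.65 to 9.75) and Chia (15.03, the others 15.18 to 15.19). Control rat 1 was that array in Ciart (RGD1566380, 3.87, the others 2.63 to 2.92) and Ear11 (10.29, the others 9.80 to 9.92), and control rat 4 in Tef (12.17, the others 11.91 to 11.97).

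The change at D28 differed from that at D3, by the test of the difference, in 24 of the 75 called genes named by the rule. Over all genes it was 1.22%. The 75 had all been called at D28, and the D28 change is part of this difference. The D28 change minus the D3 change was 5.70 in Dbp, 4.99 in Ciart (RGD1566380), 4.35 in Nr1d1, 3.09 in Nr1d2, 2.42 in Per3, 2.26 in Tef and 1.32 in Tac1. It was -3.05 in Arntl, -2.60 in Zp1, -2.56 in Hs3st6, -2.34 in Scd1, -2.13 in Npas2, -1.89 in Fibin, -1.78 in Eln, -1.77 in Scd4, -1.76 in Spon2 and -1.71 in Slc26a4. Smaller differences were -1.29 in Adm, -1.06 in Slc6a2, -0.99 in Cry1, -0.95 in Hsph1, -0.85 in Hpx, -0.65 in Cyp4b1 and -0.63 in C4bpa. Adjusted p-values of the differences ran from 6.8e-16 to 0.032 (limma).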

How the results depend on the processing

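The count of 327 DEGs became 512 with slide as a random block, 143 with normexp background correction, 153 with the authors' table, 139 with only the arrays of D28 and 976 with no fold limit, and ranged from 234 to 511 when 1 array was left out. The fit with the replicate block called 293, and 276 were called with only the arrays of D28 and slide as a block. The 307 genes that differed between D28 and D3 became 486 with slide as a random block and 521 with no fold limit, and ranged from 274 to 355 without 1 array. The count of 0 between D28 and D90 became 2 with slide as a random block and ranged from 0 to 1 without 1 array.

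Replicate numbers did not pair the rats, as the deviations of same-numbered rats at D28 correlated at 0.24, -0.17, -0.18, -0.09 and 0.41, so the replicate block is no paired test. Of the 75 called genes named by the rule, 43 kept their call under all 12 alternatives that used every array of D28, and 58 without any 1 array. Normexp ended 22 calls and 20 ended with the authors' table, in both cases including those of Muc20 (0.49 and 0.55), Klk13, Itih3, Hpx, Mzb1, Icos, Slc7a11, Hspb1, Lims2, Mt1a and Mcm5, and Irg1 was at 0.44 with normexp. With only the 10 arrays of D28, 16 calls ended, among them Eln, Adamts9, Cpb2, Acot1, Npas2, Zp1, S100a9 and Fkbp5. Slide as a fixed block ended 1, that of Bub1b. The sign turned for 1 called gene, Acot1, within slide 1 (-0.0957). Normexp moved the fold of 21 of the 75 by over 1.5 times and the authors' table that of 17, among them Orm1 (4.43, then 2.29 and 2.62), Tyr (2.40, then 0.79 and 0.87), Olr1410 (2.06, then 0.61 and 0.75), Ifit1 (1.48, then 0.36 and 0.39) and Zbtb16 (-2.74, then -1.97 and -2.11), and normexp alone Lpo (3.27, then 2.65), Zp1 (-1.69, then -1.05), Nr1d2 (1.63, then 0.95) and Slc7a11 (1.05, then 0.39). The normexp offset adds 50 units to every intensity, which by itself makes the log2 change of a dim gene smaller. Its part in these shifts was not tested, nor was that of the background treatment in the authors' table. Dim probes limit the depth, since 62 DEGs were well above background on fewer than 3 arrays of their higher group.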
